A study of Mus musculus with 10 samples.

Results

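The NMDA receptor subunit genes of the mouse are Grin1, Grin2a, Grin2b, Grin2c, Grin2d, Grin3a and Grin3b. They were taken by symbol from a table of read counts, and all 7 were found among its 56691 genes. The libraries hold ribosome-associated RNA of the ventral tegmental area (VTA), a midbrain region rich in dopamine neurons. There were 5 libraries from male C57BL/6 mice that had undergone acute restraint, a stressor in which the animal cannot move, for 30 min, and 5 control libraries from male C57BL/6 mice without restraint. Animals of both groups are labelled wild type, and in both the dopaminergic neurons expressed NBL10-HA, a tagged protein through which ribosomes and the RNA bound to them were enriched. The labels used here give neither the promoter or vector that drives NBL10-HA nor the age of the animals. They also do not state that each library is a separate animal, so p-values measure only the spread between these libraries. The comparison asks which signalling genes of these neurons differ in ribosome-bound RNA after restraint.

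An NMDA receptor is a glutamate-gated ion channel built of 4 subunits that lets calcium into the neuron. Every such receptor contains GluN1, encoded by Grin1, which binds the co-agonist glycine or D-serine. The GluN2 subunits, encoded by Grin2a to Grin2d, bind glutamate and set how long the channel stays open and how strongly magnesium blocks it. The GluN3 subunits, encoded by Grin3a and Grin3b, bind glycine and give receptors with less calcium entry and weaker magnesium block. In dopamine neurons of the midbrain, NMDA receptors are known for driving burst firing.

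In these libraries Grin1 was the most abundant of the 7 genes per base of exon and Grin3b was barely detected. After restraint Grin1 stood at 156 ± 34.3 CPM, against 111 ± 17.7 CPM in controls (CPM, read counts scaled to the size of the library; mean ± SD over 5 libraries a group). This difference did not pass the main test across all genes. Of 3 ratios tested, Grin3a over Grin1 was lower after restraint and Grin2a over Grin2b was higher, each past an exact permutation test. The adjusted p was 0.0357 for each, and 0.0476 to 0.0714 when single libraries were left out. Grin3a itself averaged 66.3 ± 7.48 CPM after restraint and 66.6 ± 5.26 CPM in controls, so the first ratio mostly carries the Grin1 difference. The ratios were chosen with earlier results of these data known, and these p-values do not allow for that choice. How many other gene pairs would pass was not tested.

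The genes lie on 7 chromosomes and are different in length, and reads that could come from more than 1 of them would not be told apart. In the GRCm39 coordinates of the table, Grin1 lies at chr2:25181193-25209199 on the minus strand, with 9700 bases of merged exons. Grin2a lies at chr16:9385762-9813424 (minus strand, 17933 exon bases) and Grin2b at chr6:135690231-136150509 (minus strand, 24842 exon bases). Grin2c lies at chr11:115139995-115158069 (minus strand, 5037 exon bases) and Grin2d at chr7:45481307-45527802 (minus strand, 6658 exon bases). Grin3a lies at chr4:49661611-49845744 (minus strand, 12275 exon bases) and Grin3b at chr10:79806549-79813024 (plus strand, 3296 exon bases). The longest identical stretch between the transcripts of 2 subunit genes was searched for, since a read that lies within it cannot be assigned to 1 gene. That of Grin2c and Grin2d, 32 bases within the coding sequence of Grin2c, is given here from GENCODE M21 (GRCm38), in the sense direction of both genes and shared letter for letter.

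Grin2c and Grin2d: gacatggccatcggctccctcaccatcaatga

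Between Grin2a and Grin2b, the pair whose ratio is tested here, the longest shared stretch was 24 bases. Genes on the opposite strand were another source of uncertainty, because the counts do not tell strands apart. Grin1 shares 13.5% of its exon bases with the antisense gene Grin1os, which held 231 counts over all 10 libraries. Grin3b shares 32.1% of its exon bases with Tmem259, which held 56473 counts, so its low values are uncertain. Grin2d shares 9.66% with Gm45441, a gene with 112 counts in all.

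Total counts ran from 56082358 to 86584968 per library. Restraint 1 stood apart on principal component 1 of log2 CPM, with a score of 92.1 against -19.2 to 4.08 for the other libraries. Markers of every cell type read here had counts in each library, so their presence does not check the labelled cell type. No library of unenriched RNA was there for comparison. The 12 dopamine neuron markers are therefore given as levels only. Their summed level was 2187 to 3033 CPM after restraint and 1964 to 2689 CPM in controls. Th, the gene of the enzyme that limits the rate of dopamine synthesis, averaged 477 ± 65.3 CPM after restraint and 411 ± 78.6 CPM in controls. RNA of other cells was also present, since 8 astrocyte markers summed to 4291 to 5361 CPM after restraint and 3769 to 4366 CPM in controls. The subunit levels below are therefore those of the enriched RNA as a whole, in which fewer cells of a type and less RNA per cell cannot be told apart.

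Levels were compared between subunit genes as CPM per kilobase of merged exon. Grin1 had 16.04 ± 3.54 after restraint and 11.5 ± 1.83 in controls on this scale. Grin3a, the GluN3 gene known for early postnatal expression in forebrain, came next, with 5.40 ± 0.61 after restraint and 5.43 ± 0.43 in controls. Grin1 stood above Grin3a in each library, and their ranges did not overlap in either group.

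Below Grin3a, the 4 GluN2 genes followed in the order Grin2d, Grin2a, Grin2b and Grin2c in both groups. Grin2d, which encodes a slow subunit found in midbrain and in interneurons, had 3.73 ± 0.60 CPM per kilobase after restraint and 3.83 ± 0.83 in controls. Grin2a, which encodes a faster subunit of mature synapses, had 3.48 ± 0.51 after restraint and 3.36 ± 0.41 in controls. Grin2b, which encodes a slower subunit with a long intracellular tail, had 2.47 ± 0.46 after restraint and 2.91 ± 0.50 in controls. Grin2c, known from cerebellar granule cells and astrocytes, had 2.03 ± 0.36 CPM per kilobase after restraint and 2.05 ± 0.22 in controls. From Grin3a down to Grin2c, each gene's range over libraries overlapped that of the next in both groups. Within a library the order on this scale was steadier, since Grin3a stood above Grin2d and Grin2a above Grin2b in all 10. The order of Grin2a and Grin2b depends on the length used. Divided by the length of the coding sequence, Grin2b held 39.2% and Grin2a 36.8% of the 4 GluN2 genes (mean of 10 libraries). Grin2b stood above Grin2c in 4 of 5 restraint libraries and in 5 of 5 control libraries, and Grin2d above Grin2a in 4 of 5 restraint libraries and in 3 of 5 control libraries. Grin3b was last, with 0.167 ± 0.048 CPM per kilobase after restraint and 0.138 ± 0.057 in controls, and its range lay below that of Grin2c.

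Single values of Grin1 after restraint were 135, 125, 194, 192 and 132 CPM in libraries 1 to 5, against 92.5, 129, 108, 96.4 and 130 CPM in control libraries 1 to 5. Restraint 3 and 4 were the highest of all 10, and the other 3 restraint libraries lay close to the upper 2 controls, so the groups overlapped. All 5 restraint libraries stood above the control median. The log2 fold change of Grin1 was 0.48 ± 0.14 (SE, 95% interval 0.20 to 0.77), with an adjusted p of 0.174 (edgeR quasi-likelihood test, Benjamini-Hochberg over 18440 genes).

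**Figure D1:**
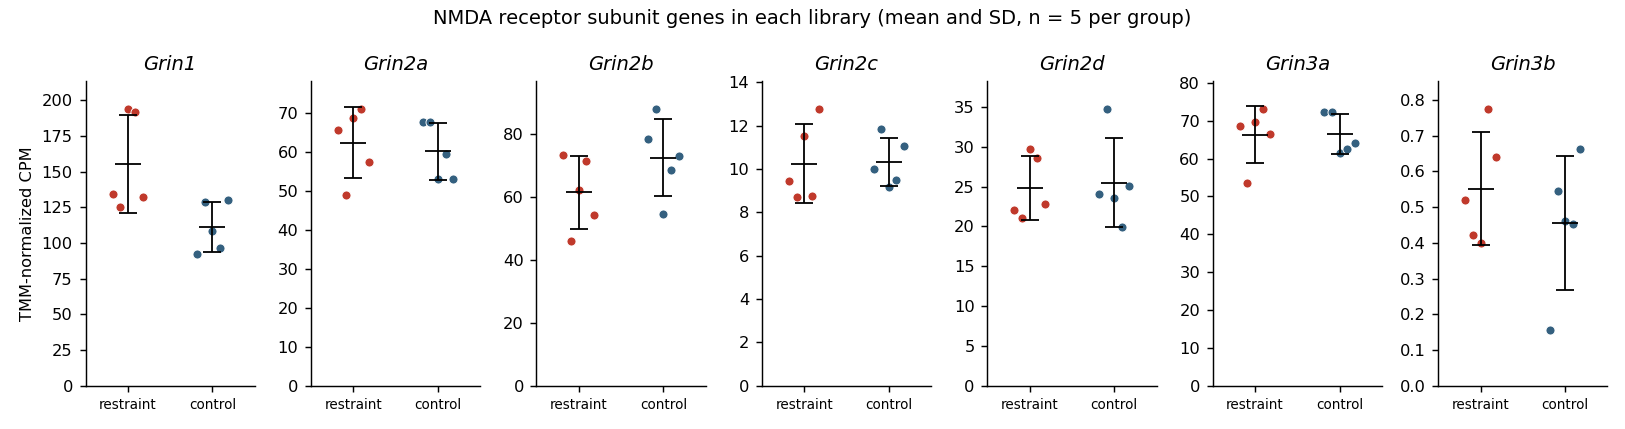
Level of each NMDA receptor subunit gene in TMM-normalized CPM (vertical axes start at 0 and differ between panels), with restraint libraries in red on the left and control libraries in blue on the right. Points are libraries, the bars are the mean and SD (n = 5 per group), and in Grin1 2 restraint libraries stand above all others, at 194 and 192.

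The GluN2 genes did not share that difference. Grin2b had 73.3, 46.0, 62.1, 71.2 and 54.2 CPM in restraint libraries 1 to 5, against 78.2, 87.9, 54.6, 68.3 and 73.0 CPM in control libraries 1 to 5. Its groups overlapped over most of their range, with the lowest values in restraint 2 and restraint 5 and the highest in control 2. Its log2 fold change was -0.24 ± 0.13 (SE, 95% interval -0.52 to 0.04; edgeR adjusted p = 0.526).

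Grin2a had 65.8, 49.0, 68.8, 71.2 and 57.5 CPM in restraint libraries 1 to 5, against 67.9, 67.7, 53.1, 59.7 and 53.2 CPM in control libraries 1 to 5. Its groups covered nearly the same range, with a log2 fold change of 0.05 ± 0.11 (SE, 95% interval -0.18 to 0.28). Grin2d had 22.0, 21.03, 29.7, 28.7 and 22.9 CPM in restraint libraries 1 to 5, against 24.1, 34.8, 23.6, 20.0 and 25.1 CPM in control libraries 1 to 5. The highest Grin2d value was in control 2 and the lowest in control 4, so the controls spanned the restraint libraries. Its log2 fold change was -0.04 ± 0.14 (SE, 95% interval -0.33 to 0.26). Grin2c ran from 8.70 to 12.8 CPM after restraint and from 9.18 to 11.9 CPM in controls, with a log2 fold change of -0.01 ± 0.13 (SE, 95% interval -0.29 to 0.27).

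The GluN3 genes gave no difference beyond the spread between libraries. Grin3a had 68.5, 53.7, 69.8, 73.2 and 66.5 CPM in restraint libraries 1 to 5, against 72.2, 72.3, 61.6, 62.6 and 64.2 CPM in control libraries 1 to 5. Restraint 2 was the lowest and restraint 4 the highest, and the log2 fold change was -0.01 ± 0.09 (SE, 95% interval -0.20 to 0.19), the narrowest interval among the 7 genes. Grin3b rested on 22 to 55 counts in restraint libraries and 10 to 41 counts in control libraries. Its log2 fold change of 0.28 ± 0.44 (SE) had an interval from -0.66 to 1.21, so a difference of this size was not detectable at this depth.

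**Figure D2:**
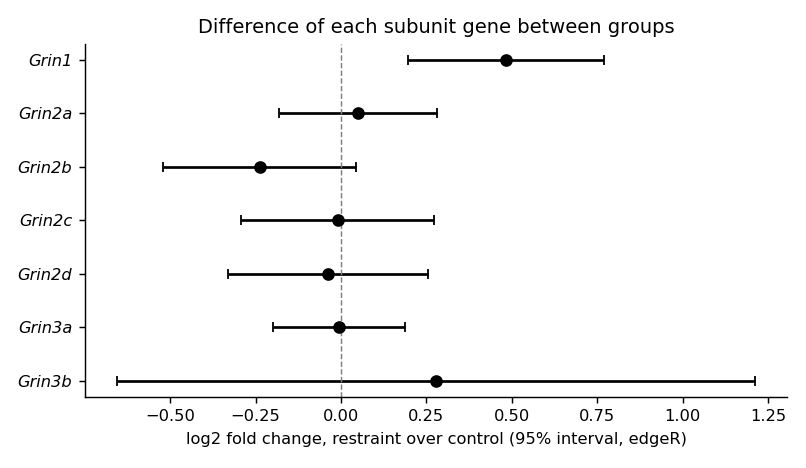
Log2 fold change of each subunit gene, restraint over control, with its 95% interval from the edgeR fit (horizontal axis, 0 marked by the dashed line). The interval of Grin1, 0.20 to 0.77, lies above 0, and the intervals of the other 6 genes include 0.

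All 7 genes passed the filter on low counts. None of them passed an adjusted p of 0.05 in edgeR, where 0.0217% of all 18440 genes did (0.00542% higher and 0.0163% lower after restraint). An unadjusted p under 0.05 was reached by 1 of 7, Grin1, which was higher, and by 11.7% of all genes (5.64% higher and 6.04% lower). DESeq2 passed 1 of 7, again Grin1, at a log2 fold change of 0.49 ± 0.14 (SE) and an adjusted p of 0.0290, where it passed 1.64% of all genes (0.634% higher and 1.00% lower). In none of the 7 were the CPM ranges of the groups apart, which was so for 2.61% of all genes. The median log2 fold change of the 7 genes was -0.01, with 3 positive, beside -0.00 over all genes tested, of which 9146 were positive. A log2 fold change at least as high as that of Grin1 was found for 4.69% of all genes tested. When genes with very few counts were kept in the fit (32529 genes), Grin1 had an edgeR adjusted p of 0.00199. That fit passed 103 higher and 199 lower genes, against 1 and 3 in the main fit. When single libraries were left out, the log2 fold change of Grin1 ran from 0.38 (without restraint 3) to 0.55.

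Other library measures moved with the groups. Among counts of 1 to 30, 80.0 to 84.8% were even after restraint and 76.8 to 79.8% in controls, without overlap. Gfap, an astrocyte filament gene, had 2471 ± 316 CPM after restraint and 1919 ± 121 CPM in controls (mean ± SD, 5 libraries each; edgeR adjusted p = 0.118, DESeq2 adjusted p = 0.0148). The astrocyte markers did not all go with it. Of these, 5 of 8 had a positive log2 fold change, with a median of 0.11. Only 1 of 8, Gfap, was higher at an unadjusted p under 0.05 in edgeR. Of the dopamine neuron markers, 10 of 12 had a positive log2 fold change, with a median of 0.26, and 6 of 12 were higher at an unadjusted p under 0.05 in edgeR, where 5.64% of all genes were. The dopamine transporter gene Slc6a3 had -0.03 ± 0.16 (SE). The summed dopamine markers were highest in restraint 3, at 3033 CPM, which was also the library with the highest Grin1. Restraint 4, with nearly the same Grin1, had 2589 CPM, within the control range. Among the controls, the highest sums, 2689 CPM in control 1 and 2659 CPM in control 4, came with the lowest Grin1, 92.5 and 96.4 CPM. The part of these measures in the Grin1 difference was not tested. With each library's trend on gene length removed the log2 fold change of Grin1 was 0.46, and with the trend on GC content removed it was 0.48.

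The composition of the subunit pool was described as each gene's share of the counts per kilobase of exon summed over the 7 genes. Grin1 held 44.2, 48.0, 51.4, 50.9 and 44.5% of this sum in restraint libraries 1 to 5, against 34.0, 38.8, 41.6, 38.0 and 43.7% in control libraries 1 to 5. The lowest restraint library lay just above the highest control, so the groups did not overlap in this share, although they did in the CPM of Grin1. That gap depended on the length used. With coding length the lowest restraint library had 43.9% and the highest control 44.3%, and without division by length they had 36.0 and 36.4%, so the groups overlapped under both. With transcript length they had 58.0 and 57.7%, without overlap. The means were 47.8 ± 3.41% after restraint and 39.2 ± 3.67% in controls (mean ± SD, 5 libraries each).

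The mean shares of 5 of the other 6 genes were lower after restraint, and the 7 shares of a library are not independent, since they sum to a fixed total. Grin3a held 16.3 ± 1.40% after restraint and 18.7 ± 1.67% in controls. Grin2b held 7.44 ± 1.14% after restraint and 9.97 ± 1.16% in controls. Grin2d held 11.2 ± 0.46% after restraint and 13.02 ± 1.41% in controls, and Grin2a held 10.5 ± 0.70% after restraint and 11.6 ± 1.53% in controls. Grin2c held 6.21 ± 1.37% after restraint and 7.02 ± 0.18% in controls. The share of Grin3b, at 0.506 ± 0.128% after restraint and 0.471 ± 0.180% in controls, was the exception in direction.

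**Figure D3:**
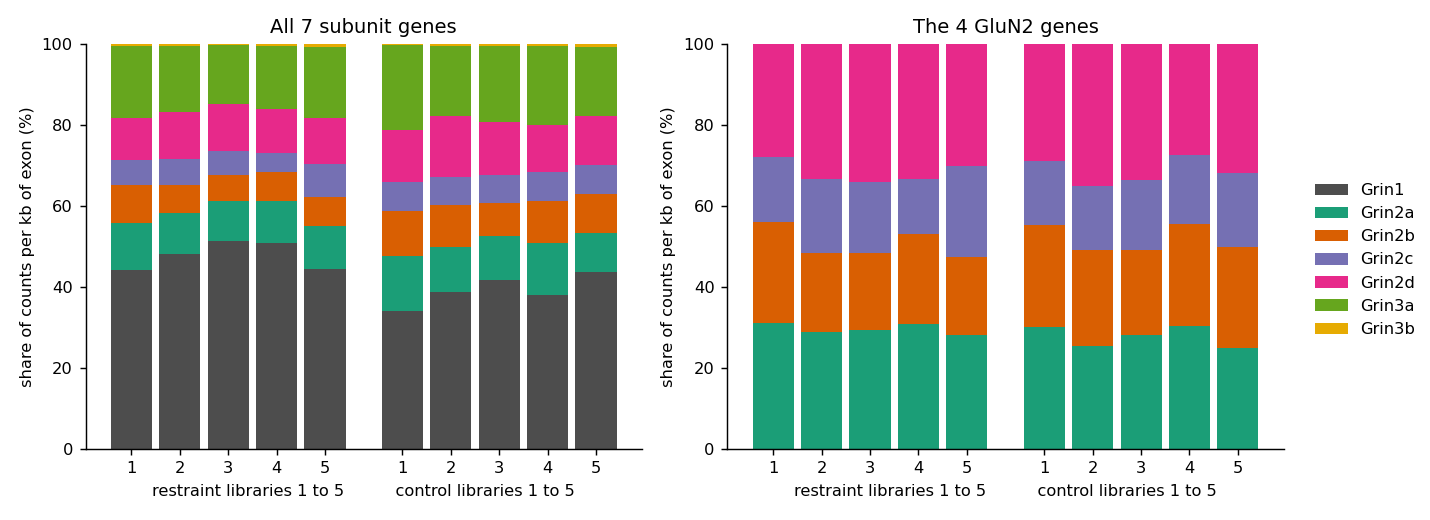
Share of counts per kilobase of exon (percent) held by each subunit gene in each library, over all 7 genes on the left and over the 4 GluN2 genes on the right, with restraint libraries 1 to 5 left of control libraries 1 to 5. The Grin1 segment reaches 44.2 to 51.4% after restraint and 34.0 to 43.7% in controls.

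The sum of the 4 GluN2 genes per kilobase, divided by Grin1 per kilobase, was 0.745 ± 0.095 after restraint and 1.07 ± 0.169 in controls (mean ± SD, 5 libraries each). The restraint libraries ran from 0.652 to 0.850 and the controls from 0.884 to 1.31, without overlap. With coding lengths the mean was 0.698 after restraint and 1.03 in controls, and the groups overlapped, from 0.596 to 0.845 after restraint and from 0.836 to 1.30 in controls. With the length of 1 transcript per gene the mean was 0.378 after restraint and 0.542 in controls, without overlap (0.332 to 0.429 after restraint and 0.445 to 0.664 in controls). The restraint mean was thus the lower under each length.

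Within the GluN2 pool the genes were more evenly spread. Grin2d held 31.8 ± 2.61% of it after restraint and 31.3 ± 3.24% in controls, and Grin2a held 29.7 ± 1.25% after restraint and 27.8 ± 2.57% in controls. Grin2b held 21.03 ± 2.58% after restraint and 23.9 ± 1.79% in controls. Its single shares were 25.0, 19.5, 19.1, 22.3 and 19.2% in restraint libraries 1 to 5, against 25.1, 23.8, 20.9, 25.1 and 24.7% in control libraries 1 to 5, so 3 restraint libraries lay below all controls and restraint 1 lay among the highest. Grin2c held 17.5 ± 3.26% after restraint and 16.9 ± 1.12% in controls, with its lowest and highest value both after restraint, at 13.5% in restraint 4 and 22.3% in restraint 5.

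These proportions rest on the length by which the counts are divided, because Grin2a and Grin2b have very long annotated exons outside the coding sequence. Over all 10 libraries and with merged exons, Grin2a, Grin2b, Grin2c and Grin2d held 28.7, 22.5, 17.2 and 31.6% of the GluN2 pool. With coding lengths of 4392, 4446, 3717 and 3969 bases, the shares of the same genes were 36.8, 39.2, 7.34 and 16.7%. With the length of 1 transcript each, they were 30.7, 20.2, 15.4 and 33.7%. Grin2b was thus below Grin2a and Grin2d by merged exons and by transcript, and above both by coding length, while Grin2c was last under all 3. Which length fits the transcripts present in these cells was not tested, so the order among Grin2a, Grin2b and Grin2d is not settled by these counts.

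**Figure D4:**
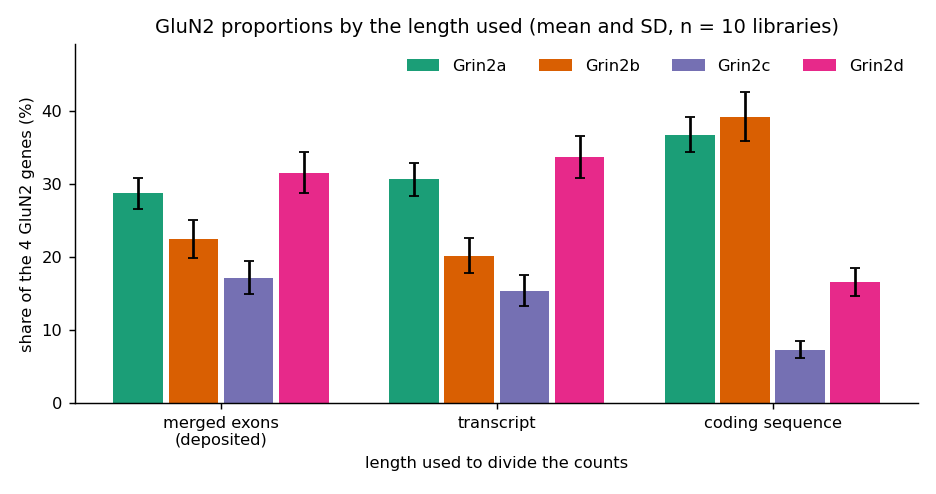
Share of the GluN2 pool (percent, mean and SD over 10 libraries of both groups) held by Grin2a, Grin2b, Grin2c and Grin2d when counts are divided by merged exon length, by the length of 1 transcript or by coding length. Grin2b stands at 22.5, 20.2 and 39.2% in that order, and Grin2d at 31.6, 33.7 and 16.7%.

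Ratios of 2 genes within a library do not depend on library size, and a difference between groups in such a ratio does not depend on the lengths used. The 3 ratios tested were chosen with earlier results of these data known, and their p-values do not allow for that choice. Of these ratios, Grin2a over Grin2b addresses the balance of the GluN2 subunits best known from forebrain synapses. Its log2 count ratio was -0.16, 0.09, 0.15, -0.00 and 0.08 in restraint libraries 1 to 5, against -0.20, -0.38, -0.04, -0.20 and -0.46 in control libraries 1 to 5. Of the restraint libraries, 4 of 5 lay above all controls, and restraint 1 lay among them. The means were 0.03 ± 0.12 after restraint and -0.25 ± 0.16 in controls (mean ± SD, 5 libraries each), a difference of 0.29 ± 0.09 (SE; exact two-sided permutation test, p = 0.0159, adjusted p = 0.0357 over 3 ratios). With 1 library fewer the difference was 0.24 to 0.34. Its adjusted p was 0.0714 without restraint 2, restraint 3, restraint 4, control 1, control 2 or control 4, and 0.0476 otherwise. The unadjusted p of the same test was 0.0317 without restraint 4 and also without restraint 5, where the adjusted p was 0.0476. These calls therefore depend on the other ratios and on having fewer splits, and do not single out a library.

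Grin3a over Grin1 sets the GluN3 gene with the higher level against the obligatory subunit. The log2 count ratio was -0.98, -1.22, -1.48, -1.39 and -0.99 in restraint libraries 1 to 5, against -0.36, -0.84, -0.81, -0.62 and -1.02 in control libraries 1 to 5. The restraint libraries were the lower group, with 3 of 5 below all controls, and control 5 was as low as restraint 1 and 5. The means were -1.21 ± 0.23 after restraint and -0.73 ± 0.25 in controls (mean ± SD, 5 libraries each), a difference of -0.48 ± 0.15 (SE; exact two-sided permutation test, p = 0.0238, adjusted p = 0.0357 over 3 ratios). Grin3a itself averaged 66.3 ± 7.48 CPM after restraint and 66.6 ± 5.26 CPM in controls. With 1 library fewer the difference in the ratio was -0.55 to -0.39. Its adjusted p was 0.0714 without restraint 2, restraint 3, restraint 4, control 1, control 2, control 3 or control 4, and 0.0476 otherwise. The unadjusted p of the same test ran from 0.0159 (without control 5) to 0.0476, and these calls too depend on having fewer splits.

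Grin2d over Grin2b compares the GluN2 genes described for midbrain dopamine neurons. Its log2 count ratio was -1.74, -1.13, -1.06, -1.31 and -1.25 in restraint libraries 1 to 5, against -1.70, -1.34, -1.21, -1.78 and -1.54 in control libraries 1 to 5. The groups overlapped, with restraint 1 among the lowest. The difference of 0.21 ± 0.16 (SE) did not pass (exact two-sided permutation test, p = 0.214, adjusted p = 0.214 over 3 ratios).

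**Figure D5:**
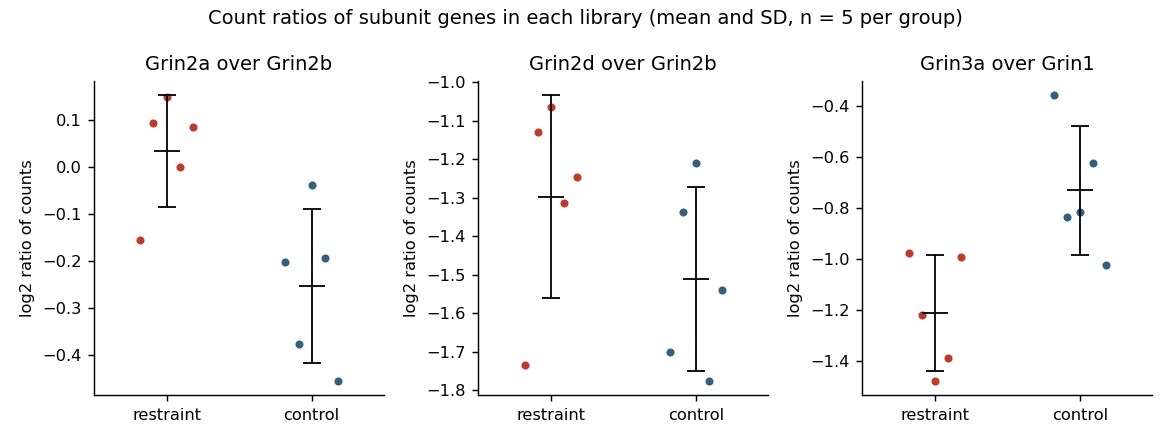
Log2 ratio of counts of 2 subunit genes in each library, for Grin2a over Grin2b, Grin2d over Grin2b and Grin3a over Grin1, with restraint libraries on the left and control libraries on the right of each panel. Points are libraries and bars the mean and SD (n = 5 per group), and 4 of 5 restraint libraries lie above all controls for Grin2a over Grin2b.

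The other ratios to Grin1 are given as description, without a test, since all share the Grin1 counts. The log2 ratio of Grin2d to Grin1 averaged -2.63 ± 0.09 after restraint and -2.14 ± 0.21 in controls (mean ± SD, 5 libraries each). It ran from -2.74 to -2.53 after restraint and from -2.37 to -1.89 in controls, and it was the only one of the 6 ratios to Grin1 whose groups did not overlap. How many genes outside the subunits would be apart in their ratio to Grin1 was not counted. Grin2d itself had a log2 fold change of -0.04 ± 0.14 (SE). Differences of the same sign were seen for Grin2b (-0.71), Grin2c (-0.49) and Grin2a (-0.43), and a smaller one for Grin3b (-0.09).

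Genes whose pattern over the 10 libraries was most like that of a subunit were sought among 9673 genes with a mean of at least 10 CPM, by the root mean square difference of centred log2 CPM. For Grin1, whose own SD over the libraries was 0.36 (log2), the closest were Map1b, which encodes a microtubule-associated protein, at 0.12, and Cit, which encodes citron kinase, at 0.14. For Grin2b (SD 0.28), they were Cdkl1, a kinase gene, at 0.08 and Pnma3 at 0.09. For Grin2d (SD 0.25), they were the homeobox gene Zfhx2 and the carbonic anhydrase-related gene Car10, both at 0.09. These genes were chosen by this distance, so their values are a description.

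The other ionotropic glutamate receptor genes, which encode AMPA, kainate and delta subunits, gave 0 of 11 past an edgeR adjusted p of 0.05 and 0 of 11 in DESeq2. Their median log2 fold change was 0.10, with 9 of 11 positive, beside 9146 of the 18440 genes tested. At an unadjusted p under 0.05 in edgeR, 0 of 11 were higher and 1 of 11 was lower, beside 5.64% and 6.04% of all genes. This was Gria2, the AMPA subunit gene whose product limits calcium entry, with 132 ± 21.5 CPM after restraint and 154 ± 5.76 CPM in controls (mean ± SD, 5 libraries each). Its log2 fold change was -0.23 ± 0.10 (SE; edgeR adjusted p = 0.379). The kainate receptor gene Grik2 had 0.17 ± 0.11 (SE; edgeR adjusted p = 0.611).

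Among 25 genes that encode scaffold and anchoring proteins of the receptor, none passed in edgeR, 14 were positive, and the median log2 fold change was 0.01. DESeq2 passed 1 of 25, beside 1.64% of all genes. The gene was Lin7b, which encodes an adaptor that links NMDA receptors to transport along microtubules. It had 24.4 ± 5.08 CPM after restraint and 33.7 ± 2.83 CPM in controls (mean ± SD, 5 libraries each), with a log2 fold change of -0.47 ± 0.12 (SE; edgeR adjusted p = 0.162, DESeq2 adjusted p = 0.0290). Apba1, which encodes another protein of that adaptor complex, had 0.26 ± 0.11 (SE; edgeR adjusted p = 0.356). At an unadjusted p under 0.05 in edgeR the list of 25 held 2 higher and 2 lower genes, beside 5.64% and 6.04% of all genes.

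Of 20 genes for kinases and phosphatases that act on the receptor, none passed in edgeR or DESeq2, 12 were positive, and the median was 0.04. At an unadjusted p under 0.05 in edgeR, 2 of 20 were higher and 0 lower, beside 5.64% and 6.04% of all genes. They were the protein kinase C gene Prkca, with a log2 fold change of 0.25 ± 0.09 (SE; edgeR adjusted p = 0.262), and the Src family kinase gene Fyn, with 0.15 ± 0.07 (SE; edgeR adjusted p = 0.371). Of 12 genes for the supply of glycine and D-serine, the co-agonists, none passed in either tool, 4 were positive, and the median was -0.03. Phgdh, which encodes the first enzyme of serine synthesis, had -0.26 ± 0.12 (SE; edgeR adjusted p = 0.417), and Dao, which encodes D-amino acid oxidase, had 0.45 ± 0.21 (SE; edgeR adjusted p = 0.420).

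Of 17 genes of calcium signalling downstream of the receptor, none passed in either tool, 8 were positive, and the median was -0.01. At an unadjusted p under 0.05 in edgeR, 1 of 17 was higher and 3 were lower, beside 5.64% and 6.04% of all genes. Camkk1, which encodes a kinase that activates CaM kinases, had 87.4 ± 12.6 CPM after restraint and 112 ± 15.1 CPM in controls (mean ± SD, 5 libraries each), a log2 fold change of -0.35 ± 0.11 (SE; edgeR adjusted p = 0.195). Crtc1, which encodes a CREB coactivator, had -0.31 ± 0.12 (SE; edgeR adjusted p = 0.321).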

How the data were processed

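Ribosome-associated RNA of 5 restraint and 5 control libraries was compared. Groups and replicate numbers were taken from GEO's labels. The authors deposited raw read counts, as whole numbers for each gene in each of the 10 libraries. Per the submitters' processing notes, FastQC, Trimmomatic and STAR were used upstream, without versions, and the build was mm10. Per the file headers, featureCounts 2.0.3 counted reads over exons of GENCODE M30, an annotation of GRCm39. No option for strand, for read pairs or for multi-mapping reads is recorded there, so both mates of a pair were counted and strands were pooled. The coordinates printed are those of the table, read as GRCm39, because 93.9% of 52071 genes start more than 10000 bases from their GENCODE M21 (GRCm38) position. The merged exon length is another column of the deposited counts table.

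Of 56691 genes, 52073 received symbols by identifier. After filterByExpr (at least 10 counts, 15 in total) 18440 remained for TMM normalization and for the quasi-likelihood test of edgeR 4.0.16 in R 4.3.3, with group as the only term. P-values were adjusted by Benjamini-Hochberg, with a threshold of 0.05. Standard errors were derived from the F statistic, with a median of 0.136 over all genes. Log2 CPM used a prior count of 2. Ratios were tested by exact permutation of the group labels in Python 3.11.15 (scipy 1.17.1), with a smallest possible p of 0.00794, and adjusted over the 3 ratios.

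The subunits, the gene lists and the tests were chosen with earlier results of these data known. The text names all 7 subunits. From each pathway list it names the genes past the threshold or else the 2 with the smallest unadjusted p, and from each marker list the first gene, with Th and Slc6a3 for dopamine neurons. It also names the 2 genes closest in pattern to Grin1, Grin2b and Grin2d. En1, Foxa2, Ddc and Lmx1b were named after their values were seen. Coding and transcript lengths, of the longest coding sequence per gene, and GC content came from GENCODE M21. Alternatives were other normalizations, filters and tools (DESeq2 1.42.0, limma-voom with limma 3.58.1), a replicate block, leaving out each library and other lengths. The alternatives with transcript or coding length and with each library's GC or length trend removed (lowess, span 0.3) were chosen after seeing the data. The stretches shared by some pairs of subunit genes are not reported here.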

Additional observations from a re-analysis of the deposited data

How the results depend on the processing

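The log2 fold change of Grin1 was positive under all 20 alternatives run (0.38 to 0.55). Its adjusted p fell under 0.05 under 2, DESeq2 (0.49) and keeping genes with at least 1 count (0.48), and was 0.113 to 0.401 when single libraries were left out. Grin2b stayed negative under every alternative run (-0.32 to -0.15), and Grin2a stayed positive but ran down to 0.0005 (0.0005 to 0.12). Grin3b was positive under the 19 alternatives that kept it, and DESeq2 gave it no adjusted p. No alternative that gave an adjusted p passed any of these genes. Leave-one-out values crossed 0 for Grin2c (-0.11 to 0.050), Grin2d (-0.12 to 0.11) and Grin3a (-0.038 to 0.055). Higher and lower genes past the threshold, 1 and 3 in the main edgeR test, were 5 and 12 with library size only, 103 and 199 with at least 1 count, 20 and 48 with the length trend removed, 117 and 185 in DESeq2, and 0 to 9 and 0 to 83 when single libraries were left out (9 and 83 without restraint 5, 0 and 0 without restraint 3, restraint 4 or any of controls 1 to 4). With the GC trend removed 2 were higher. Robust estimation and the replicate block gave 0 and 0, beside 2154 genes at an unadjusted p under 0.05 in the main test and 1 and 3 in limma-voom. The cause of these shifts was not tested.

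The ratio of Grin2a to Grin2b differed by 0.24 to 0.34 and that of Grin3a to Grin1 by -0.55 to -0.39 when single libraries were left out, with adjusted p from 0.0476 to 0.0714. Libraries with the same replicate number did not deviate together (correlations -0.16 to 0.03), and 0 of 5 restraint libraries were closest to the control of their number. These values show no pairing by number, though 5 libraries a group are too few to settle it. With the replicate block the differences were 0.29 and -0.48 (exact sign-flip test, p = 0.0625 and 0.125, adjusted p = 0.125 for each), so neither passed. The smallest unadjusted p this test can give is 0.0625. Without division by length, Grin2a, Grin2b, Grin2c and Grin2d held 37.6, 40.6, 6.35 and 15.4% of the GluN2 pool, and with coding length 36.8, 39.2, 7.34 and 16.7%. Grin1 held 36.3% of all 7 without length and 57.2% with transcript length. Coding length as 3 times the protein length was not run, and annotated coding sequences were used instead. Grin3b, at 10 to 55 counts per library, is the gene most limited by depth.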

Other observations

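Markers of other cell types were read in the same libraries, as values with no explanation. GABA neuron markers summed to 1858 to 2168 CPM after restraint and 1597 to 1961 CPM in controls, and Gad1, which encodes a GABA-synthesizing enzyme, had a log2 fold change of -0.04 ± 0.11 (SE). Glutamate neuron markers summed to 359 to 488 CPM after restraint and 416 to 447 CPM in controls, and Slc17a6, a vesicular glutamate transporter gene, had -0.07 ± 0.09. Oligodendrocyte markers summed to 1521 to 2124 CPM after restraint and 1596 to 1947 CPM in controls, and the myelin gene Mbp had 0.15 ± 0.07. Their precursors' markers summed to 114 to 141 CPM after restraint and 108 to 153 CPM in controls, and Pdgfra had 0.03 ± 0.17. Microglia markers summed to 19.7 to 26.6 CPM after restraint and 19.3 to 30.0 CPM in controls, and Cx3cr1 had 0.33 ± 0.26. Vascular markers summed to 14.5 to 22.4 CPM after restraint and 11.9 to 17.5 CPM in controls, and Pecam1 had 0.85 ± 0.31, from means of 1.60 CPM after restraint and 0.884 CPM in controls. No marker gene was at 0 in any library, and none passed an adjusted p of 0.05 in edgeR. At an unadjusted p under 0.05, 6 of 12 dopamine neuron, 3 of 7 vascular and 3 of 8 oligodendrocyte markers were higher. The other marker lists had 0 or 1 such gene each, and 5.64% of all genes were higher at this p.

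DESeq2 passed 2 of 12 dopamine neuron markers, 1 of 8 astrocyte markers (Gfap) and none of the other marker lists, all higher after restraint, where it passed 0.634% of all genes as higher. The dopamine neuron markers were En1, which encodes a homeobox factor that dopamine neurons need, with 55.1 ± 4.89 CPM after restraint and 37.2 ± 5.91 CPM in controls, and Foxa2, a forkhead gene of the same neurons, with 18.6 ± 2.75 CPM after restraint and 13.5 ± 1.35 CPM in controls (SD, n = 5 each). Their log2 fold changes were 0.57 ± 0.11 and 0.46 ± 0.12 (SE), with edgeR adjusted p of 0.0662 and 0.144. Grin1, at 0.48 ± 0.14, lay between them in size. In the same list, 10 of 12 were positive, and Ddc had -0.05 ± 0.12, Slc6a3 -0.03 ± 0.16 and Lmx1b 0.01 ± 0.16 (SE). Whether Grin1 moves with the dopamine neuron markers was not tested.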
